A study of Mus musculus with 16 samples.

Results

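The unfolded protein response (UPR) of sorted intestinal stem cells (ISCs) was followed through 10 genes, Xbp1, Ern1, Ern2, Hspa5, Hsp90b1, Atf4, Ddit3, Atf6, Herpud1 and Dnajb9. Each symbol matched 1 of the 48440 genes in each of 3 tables of normalized read counts, 1 table for each intestinal segment. GFP+ cells were sorted from 6 cm of each segment of female Lgr5-EGFP mice, in which the stem cell gene Lgr5 drives EGFP. All mice ate high-fat diet for 16 weeks, then received vertical sleeve gastrectomy (VSG) or sham surgery, and were killed 4 weeks later, 15 minutes after a liquid meal that ended an overnight fast; the study's methods give 8 to 16 weeks of age for its animals in general. There were 16 libraries from 7 mice, 4 VSG and 2 sham in duodenum and again in jejunum, taken from 6 mice, and 2 VSG and 2 sham in ileum. Libraries that carry the same surgery and replicate number belong to 1 mouse. VSG removes most of the stomach and leaves the intestine in place, and sham mice had the stomach pressed with forceps. The GFP+ gate holds progenitors as well as stem cells, since EGFP outlasts the switch-off of its gene.

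The libraries had an implied depth of 10.9 to 63.6 M reads, and all 10 genes were listed above 0 in every library except for Ern2 in ileal sham replicate 1. That 0 allows up to 3 reads by counting error alone. Jejunal sham replicate 1 stood apart from the other jejunal libraries. Its summed normalized count for 7 stem cell markers was 13335, against 43227 to 60002 in the other 5 libraries, and its sum for 7 enterocyte markers was 1665880, against 292699 to 692181. Lgr5, the gene behind the sort, was listed at 0 in sham replicate 1 of both the jejunum and the ileum, which are 1 mouse, and at 152 to 6565 normalized counts in the other 14 libraries; the stem cell gene Olfm4 was above 0 in all 16. In the duodenum the enterocyte sum was 269688 to 509729 after VSG and 595832 to 863779 after sham surgery, without overlap, and that of 6 tuft cell markers was 29445 to 44725 after VSG and 16045 to 20759 after sham surgery, also without overlap. In the ileum the stem cell sum was 11485 to 18874 after VSG and 5116 to 8954 after sham surgery. The goblet sum was 150769 to 196502 and 91701 to 143445, and the enteroendocrine sum 4514 to 5386 and 2187 to 2422. The ileal secretory progenitor and proliferation sums were also higher after VSG without overlap, and those of enterocyte, Paneth and tuft cell markers overlapped. The part of these cell types in the duodenal and ileal differences was not tested. In bulk libraries, more cells of a type and more RNA per cell cannot be told apart. The sum of 5 immune markers was small but higher in every VSG library than in the sham libraries of its segment. It was 141 to 1626 against 53.1 to 126 in duodenum, 222 to 538 against 0.994 to 106 in jejunum, and 12.1 to 185 against 0 in ileum. Of 6 plasma cell markers, Mzb1 and Tnfrsf17 were listed at 0 in every library, Jchain, Igha and Derl3 were above 0 in 1 or 2 libraries each (at most 271), and Sdc1 was above 0 in all 16 (1539 to 8354). Of 7 pancreatic acinar markers, another ER-rich cell type, the summed count was 6660 in duodenal VSG replicate 3, 1109.9 in replicate 2 and 142 to 362 in the other duodenal libraries.

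The endoplasmic reticulum (ER) folds secreted and membrane proteins, and the UPR is the set of signals that adjusts its capacity to its load. Unfolded protein is sensed by IRE1, PERK and ATF6 in the ER membrane. IRE1 splices Xbp1 mRNA, PERK slows translation while favouring that of Atf4, and ATF6 is cut in the Golgi to release a transcription factor. In the gut the pathway matters most for goblet and Paneth cells, which secrete large amounts of protein, and the second IRE1 gene, Ern2, is made mainly in mucus-secreting epithelium. The question asked of the data was whether these genes differed between VSG and sham ISCs in each segment, and whether Ern2 and Xbp1 moved with genes of the secretory lineage from library to library.

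Of the 10 genes, 0 passed the thresholds for a call in any segment by limma (p under 0.05, Benjamini-Hochberg adjusted p under 0.2 over all genes tested, absolute log2 fold change above 0.5 and mean above 50). Over all genes tested, 0.0237% were called in duodenal, 0.0126% in jejunal and 0.0% in ileal libraries. At an unadjusted p under 0.05, Ern2 in the jejunum and Hsp90b1 in the ileum were higher after VSG, and no member was lower. Fitted without the variance trend, limma also called 0 members. Leaving out ileal Ern2, which is listed at 0 in a sham library, the log2 fold change farthest from 0 was that of jejunal Ern2, which lay between 855 and 1904 normalized counts in the VSG libraries and at 155 and 592 in the sham libraries.

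**Figure D1:**
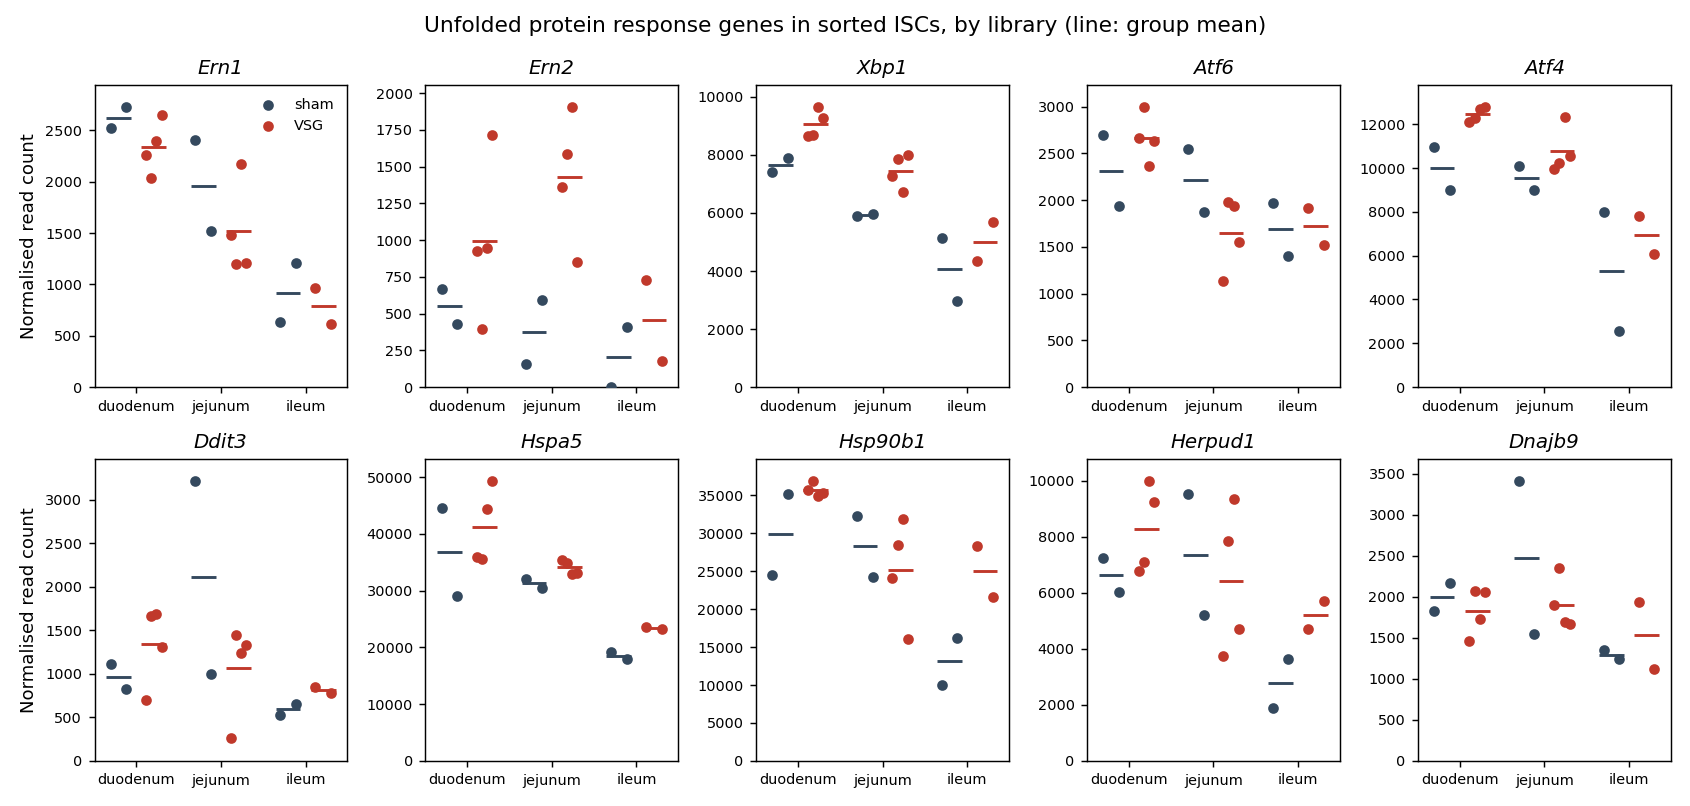
Normalized read count of each of the 10 genes (vertical axis, linear and starting at 0) in every library, by segment, with sham in dark blue, VSG in red and a line at each group mean. Separated by surgery are Ern2, Xbp1 and Hspa5 in the jejunum, Xbp1 and Atf4 in the duodenum, and Hspa5, Hsp90b1, Ddit3 and Herpud1 in the ileum. Jejunal sham replicate 1 is the high point for Ddit3 (3216) and Dnajb9 (3410).

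Ern1 and Ern2 encode IRE1α and IRE1β, the stress sensors that are both kinase and ribonuclease. Ern1 (ENSMUSG00000020715, chromosome 11, 106394650 to 106487852, minus strand, GRCm38) had 2257, 2039, 2399 and 2653 normalized counts in duodenal VSG replicates 1 to 4, against 2525 and 2725 in sham libraries. In the jejunum it had 1486, 1194, 2173 and 1209.5 counts after VSG and 2402 and 1520.4 after sham surgery. The groups overlapped in both segments; the highest jejunal values, 2402 and 2173, came from 1 library of each surgery. Ileal Ern1 was 961 and 613 after VSG (replicates 4 and 5) and 633 and 1204 after sham surgery. Its log2 fold change, VSG against sham, was -0.17 ± 0.25 (SE) for duodenal, -0.38 ± 0.43 for jejunal and -0.18 ± 0.78 for ileal cells (limma, adjusted p = 0.912, 0.844 and 0.973).

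Ern2 (ENSMUSG00000030866, chromosome 7, 122169893 to 122186207, minus strand) had the widest spread of the members in the duodenum and jejunum, where its highest library was 4.32 and 12.3 times its lowest. In the jejunum it had 1362, 1586, 1904 and 855 normalized counts in VSG replicates 1 to 4, against 155 and 592 in sham libraries. Every VSG library was therefore above both sham libraries. The group means were 1427 ± 442 (SD, n = 4) and 374 ± 309 (SD, n = 2), a log2 fold change of 2.17 ± 0.65 (SE) with an unadjusted limma p of 0.00727 and an adjusted p of 0.760. The exact permutation test over libraries (two-sided) gave p = 0.0667, the smallest that 4 libraries against 2 allow. Without sham replicate 1, the library with the low stem and high enterocyte sums, the log2 fold change was 1.21. Without sham replicate 2 it was 3.14, with sham replicate 1 as the only sham library left. The summed count of 8 goblet cell markers was 206919 to 395020 in the jejunal VSG libraries and 116519 to 235226 in the sham libraries, and its part in the Ern2 difference was not tested.

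In the duodenum Ern2 had 924, 397, 949 and 1713 normalized counts after VSG and 671 and 430 after sham surgery, so the groups overlapped (log2 fold change 0.71 ± 0.59, limma adjusted p = 0.880). Ileal Ern2 was 730 and 179 after VSG and was listed at 0 and 412 after sham surgery. Its log2 fold change depends on the pseudocount, so only its range on leaving out 1 library is given. It still enters the ileal counts of direction and the ileal median of the members. Ern2 lay lowest in the same mouse, sham replicate 1, in both the jejunum and the ileum, but not in the duodenum.

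Ern1 and Ern2 are the 2 IRE1 genes, and their levels were also set against each other per length of the principal transcript, 6946 bases for Ern1 and 2914 bases for Ern2. Jejunal Ern2 was 218%, 316%, 209% and 168% of Ern1 in VSG replicates 1 to 4, against 15.4% and 92.9% in sham libraries. All 4 VSG libraries had more Ern2 than Ern1 and both sham libraries had less (228% ± 62.8, SD, n = 4, and 54.1% ± 54.8, SD, n = 2; exact permutation p = 0.0667). The duodenal ratios were 97.6%, 46.4%, 94.3% and 154% after VSG and 63.4% and 37.6% after sham surgery, which overlapped (exact permutation p = 0.267). In the ileum they were 181% and 69.6% after VSG and 0% and 81.6% after sham surgery, so 1 VSG library was below 100% and below a sham library (exact permutation p = 0.667). This ratio was added after the values had been seen. It needs no scaling between libraries, but it is not independent of the 2 levels above.

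**Figure D2:**
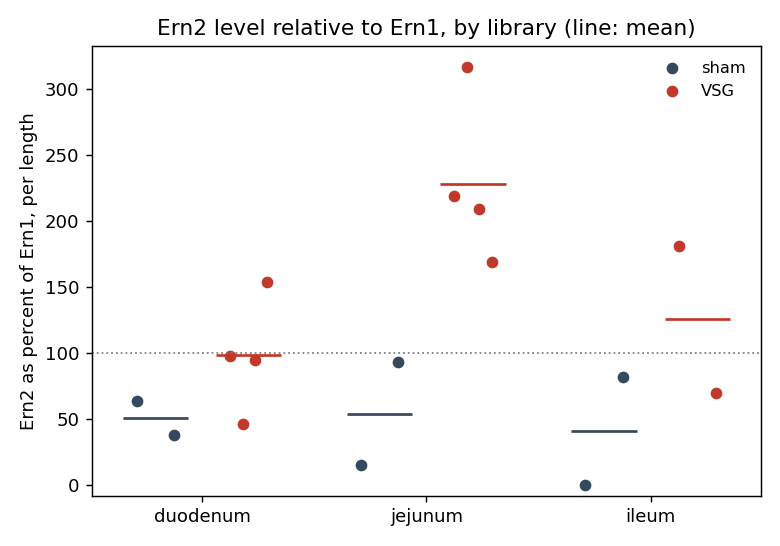
Ern2 as a percent of Ern1, both per base of transcript (vertical axis), in every library, with a line at each group mean and a dotted line at 100%. The 4 jejunal VSG libraries lie between 168% and 316%, and both jejunal sham libraries lie below 100%.

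Xbp1 (ENSMUSG00000020484, chromosome 11, 5520659 to 5525893, plus strand) encodes the transcription factor that IRE1 activates. IRE1 cuts Xbp1 mRNA at a pair of loops with the letters CNGCAGC and removes the bases between the cuts, which shifts the reading frame. A search of the principal transcript Xbp1-201 (GENCODE M21) for 2 such loops 26 bases apart found 1 pair, in exon 4 of 5, at chr11:5524279-5524304 (GRCm38, plus strand). The stretch is shown because all Xbp1 values here are sums over the gene; capitals mark the 26 bases between the cuts.

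Xbp1 exon 4: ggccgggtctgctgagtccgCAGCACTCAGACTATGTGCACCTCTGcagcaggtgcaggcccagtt

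Of the 4 annotated Xbp1 transcripts, 3 hold the 26 bases and 0 have the flanks joined without them. The values therefore count spliced and unspliced Xbp1 together, and the activity of IRE1 cannot be read from them. Xbp1 had 8642, 8698, 9639 and 9256 normalized counts in duodenal VSG replicates 1 to 4, against 7400.2 and 7891 in sham libraries. Its highest duodenal library, VSG replicate 3, is the one with the high acinar sum, and without it the log2 fold change was 0.21; those of Ddit3 and Herpud1, also highest there, were 0.26 and 0.21 without it, against 0.40 and 0.30 with it. In the jejunum it had 7256, 7854, 6716 and 7982 counts after VSG and 5889 and 5959.9 after sham surgery. Every VSG library was above both sham libraries in each of these segments, which come from the same mice. The means were 9059 ± 476 (SD, n = 4) and 7646 ± 347 (SD, n = 2) in the duodenum, and 7452 ± 584 (SD, n = 4) and 5924 ± 50.4 (SD, n = 2) in the jejunum. The log2 fold changes were small, 0.24 ± 0.19 and 0.33 ± 0.28, with limma adjusted p-values of 0.880 and 0.799 and an exact permutation p of 0.0667 in each segment. Without jejunal sham replicate 1, and without each other jejunal library in turn, the jejunal value stayed between 0.29 and 0.38. In the ileum Xbp1 had 4347 and 5673 counts after VSG and 5139 and 2966 after sham surgery, and the groups overlapped.

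Atf6 (ENSMUSG00000026663, chromosome 1, 170704674 to 170867771, minus strand), the sensor that becomes a transcription factor, overlapped between surgeries in every segment. Its normalized counts were 2663, 2993, 2369 and 2629 in duodenal VSG libraries, against 2698 and 1936 in sham libraries. In the jejunum they were 1134, 1978, 1941 and 1555 after VSG and 2547 and 1875 after sham surgery. The ileal libraries had 1918 and 1521 after VSG and 1972 and 1406 after sham surgery. The log2 fold changes were 0.22 ± 0.26, -0.44 ± 0.40 and 0.04 ± 0.56 (limma, adjusted p = 0.912, 0.800 and 0.996).

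Atf4 and Ddit3 stand downstream of PERK. Atf4 (ENSMUSG00000042406, chromosome 15, 80255184 to 80257541, plus strand) encodes the transcription factor of the integrated stress response, which is regulated largely at translation. It had 12114, 12282, 12705 and 12774 normalized counts in duodenal VSG libraries, against 10984 and 9014 in sham libraries. All 4 VSG libraries, which differed from each other by 321 (SD, mean 12469), were above both sham libraries (log2 fold change 0.33 ± 0.20, limma adjusted p = 0.874, exact permutation p = 0.0667). Jejunal Atf4 was 9977, 10213, 12347 and 10532.5 after VSG and 10115 and 8978 after sham surgery, and ileal Atf4 was 7810.01 and 6077 against 7998 and 2568. Both of these overlapped.

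Ddit3 (ENSMUSG00000025408, chromosome 10, 127290774 to 127296288, plus strand) encodes CHOP, a factor made under prolonged ER stress. In the duodenum it had 695, 1669.6, 1692 and 1310.1 normalized counts after VSG and 1111 and 826 after sham surgery. Jejunal Ddit3 was 264, 1449, 1238 and 1333 after VSG and 3216 and 1001 after sham surgery. The lowest and the highest jejunal library, VSG replicate 1 and sham replicate 1, differed 12.2-fold, and the other 4 lay between 1001 and 1449. The log2 fold change was 0.40 ± 0.44 in the duodenum and -1.01 ± 0.76 in the jejunum (limma, adjusted p = 0.908 and 0.774), and the jejunal value was -0.17 without sham replicate 1. Ileal Ddit3 was 844 and 786 after VSG and 532 and 657 after sham surgery, with both VSG libraries above (log2 fold change 0.46 ± 0.76, limma adjusted p = 0.840).

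Hspa5 and Hsp90b1 encode BiP and GRP94, the abundant chaperones of the ER lumen, and are classic targets of ATF6. Per length of the principal transcript they were the members with the highest levels in every segment, at 10837 and 11957 normalized counts per kilobase on average in duodenum, 9032 and 9265 in jejunum and 5707 and 6742 in ileum. The ranges of both genes over libraries overlapped in each segment. On the same scale Atf4 came next (6751, 6006 and 3544), ahead of Xbp1 (4034, 3261 and 2128) and Herpud1 (3960, 3449 and 2043), whose ranges overlapped too. Ddit3 and Dnajb9 lay lower, and Atf6, Ern1 and Ern2, the sensors, were lowest, with 352, 350 and 291 in the duodenum. Hspa5 (ENSMUSG00000026864, chromosome 2, 34771970 to 34777547, plus strand) had 35489, 34961, 32904.5 and 33037 normalized counts in jejunal VSG libraries, against 32127 and 30481 in sham libraries, all 4 above both. It also lay above in the ileum, at 23590 and 23169 against 19107 and 17954. The log2 fold changes were 0.12 ± 0.32 and 0.34 ± 0.27 (limma, adjusted p = 0.914 and 0.736). In the duodenum its 6 values overlapped, with 35859.8, 35593, 44427 and 49317 after VSG and 44496 and 29071 after sham surgery.

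Hsp90b1 (ENSMUSG00000020048, chromosome 10, 86690209 to 86705509, minus strand) was at 28366 and 21567 normalized counts in ileal VSG libraries, against 10021.5 and 16227 in sham libraries. Both VSG libraries were above, with a log2 fold change of 0.96 ± 0.37, an unadjusted limma p of 0.0435 and an adjusted p of 0.736. With 2 libraries against 2 the exact permutation test cannot go below p = 0.333, the value here. In the duodenum it had 35770.4, 36888, 34961 and 35274 after VSG and 24548 and 35234 after sham surgery, which overlapped by 1 library. Jejunal Hsp90b1 was 24048, 28450.1, 31923 and 16028 after VSG and 32301 and 24299 after sham surgery; the difference there was -0.20 ± 0.38 and turned to 0.02 when libraries were scaled to equal totals or quantile normalized.

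Herpud1 (ENSMUSG00000031770, chromosome 8, 94386438 to 94395377, plus strand) encodes an ER membrane protein of ER-associated degradation. In the ileum it had 4693 and 5718 normalized counts after VSG and 1886 and 3652 after sham surgery, with both VSG libraries above (log2 fold change 0.98 ± 0.50, limma adjusted p = 0.736). The duodenal libraries had 6783, 7087, 9989 and 9235 after VSG and 7252 and 6034 after sham surgery. In the jejunum the counts were 3751, 7854, 9347 and 4721 after VSG and 9518 and 5198 after sham surgery. The groups overlapped in both segments. Dnajb9 (ENSMUSG00000014905, chromosome 12, 44205559 to 44210326, minus strand), a BiP co-chaperone that restrains IRE1, ranged from 1461 to 2069 in the duodenal VSG libraries and was 1822 and 2170.3 in the sham libraries. It ranged from 1664 to 2355 in the jejunal VSG libraries and was 3410 and 1545 in the sham libraries, and ileal Dnajb9 was 1939 and 1121 against 1349 and 1242. No segment separated the surgeries for Dnajb9.

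Among the members that lay above in the ileum, Hspa5 and Hsp90b1 carry the letters of the ER stress response element in their promoters, and Herpud1 those of a different one, the ER stress response element II. The promoters are shown to place these letters. They run from 250 bases before to 50 bases after the start of the gene (RefSeq, GRCm38.p6), with the matches in capitals. The Hspa5 promoter is chr2:34771840-34772139 on the plus strand, that of Hsp90b1 is chr10:86705395-86705694 on the minus strand and that of Herpud1 is chr8:94386179-94386478 on the plus strand.

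Hspa5 promoter: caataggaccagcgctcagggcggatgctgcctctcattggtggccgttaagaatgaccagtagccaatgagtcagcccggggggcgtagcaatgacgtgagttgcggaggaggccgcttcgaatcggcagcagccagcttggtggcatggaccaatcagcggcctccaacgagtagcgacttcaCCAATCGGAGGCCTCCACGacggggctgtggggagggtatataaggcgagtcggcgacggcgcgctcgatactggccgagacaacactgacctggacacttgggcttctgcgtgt

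Hsp90b1 promoter: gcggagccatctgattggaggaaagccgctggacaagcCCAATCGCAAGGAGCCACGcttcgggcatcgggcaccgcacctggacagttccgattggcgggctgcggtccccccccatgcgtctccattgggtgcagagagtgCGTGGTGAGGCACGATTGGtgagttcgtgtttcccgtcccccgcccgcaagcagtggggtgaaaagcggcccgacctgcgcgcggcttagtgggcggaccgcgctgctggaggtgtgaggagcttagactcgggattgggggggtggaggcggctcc

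Herpud1 promoter: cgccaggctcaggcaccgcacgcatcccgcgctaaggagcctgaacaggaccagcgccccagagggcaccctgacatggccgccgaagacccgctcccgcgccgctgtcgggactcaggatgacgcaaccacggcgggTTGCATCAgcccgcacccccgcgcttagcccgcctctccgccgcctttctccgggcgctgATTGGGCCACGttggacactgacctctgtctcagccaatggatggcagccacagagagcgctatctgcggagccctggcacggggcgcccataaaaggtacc

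Motifs were searched on both strands in 32851 promoters of that length, which held 8 of the 10 members (not Ern2 and Atf6). The ER stress response element, CCAAT and CCACG with 9 bases of any kind between, was found in the promoters of Hspa5 and Hsp90b1 (2 matches in Hsp90b1, 1 on each strand) and in 0.119% of all promoters. The ER stress response element II, ATTGG and CCACG with 1 base between, was found in that of Herpud1 and in 0.0365% of all promoters. Herpud1 also held the amino acid response element TGATGNAA, read on the other strand, which 3.97% of all promoters hold. The unfolded protein response element TGACGTGG, found in 0.676% of all promoters, was in 0 of the 8. Ddit3, the other member that lay above in the ileum, held none of the motifs. The motifs do not overlap each other in these windows, and a match is a run of letters, not a site shown to be used.

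As a list, 8 of the 10 members were higher after VSG in the duodenum and 2 lower, 4 and 6 in the jejunum, and 9 and 1 in the ileum, where 50.7%, 55.0% and 57.0% of all genes tested were higher. Every VSG library lay above every sham library for 2 members in the duodenum (Xbp1 and Atf4; 6.44% of all genes), for 3 in the jejunum (Ern2, Xbp1 and Hspa5; 6.59%) and for 4 in the ileum (Hspa5, Hsp90b1, Ddit3 and Herpud1; 17.0%). No member had every VSG library below every sham library, against 8.01%, 6.21% and 11.6% of all genes. The median log2 fold change of the members was 0.26 in the duodenum beside 0.01 over all genes, -0.22 in the jejunum beside 0.11, and 0.40 in the ileum beside 0.24. As deposited, the 6 members that were lower in the jejunum (Ern1, Hsp90b1, Ddit3, Atf6, Herpud1 and Dnajb9) were all highest in sham replicate 1. Xbp1 and Ern2 were lowest in it. Without that library the jejunal median was 0.18. Sham replicate 1 is also the library with the high enterocyte and low stem cell sums, whose part in these values was not tested. Its normalized counts summed to 47.1 M, against 33.5 to 34.5 M in the other jejunal libraries. Whether it is highest for a gene therefore depends on the scaling.

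**Figure D3:**
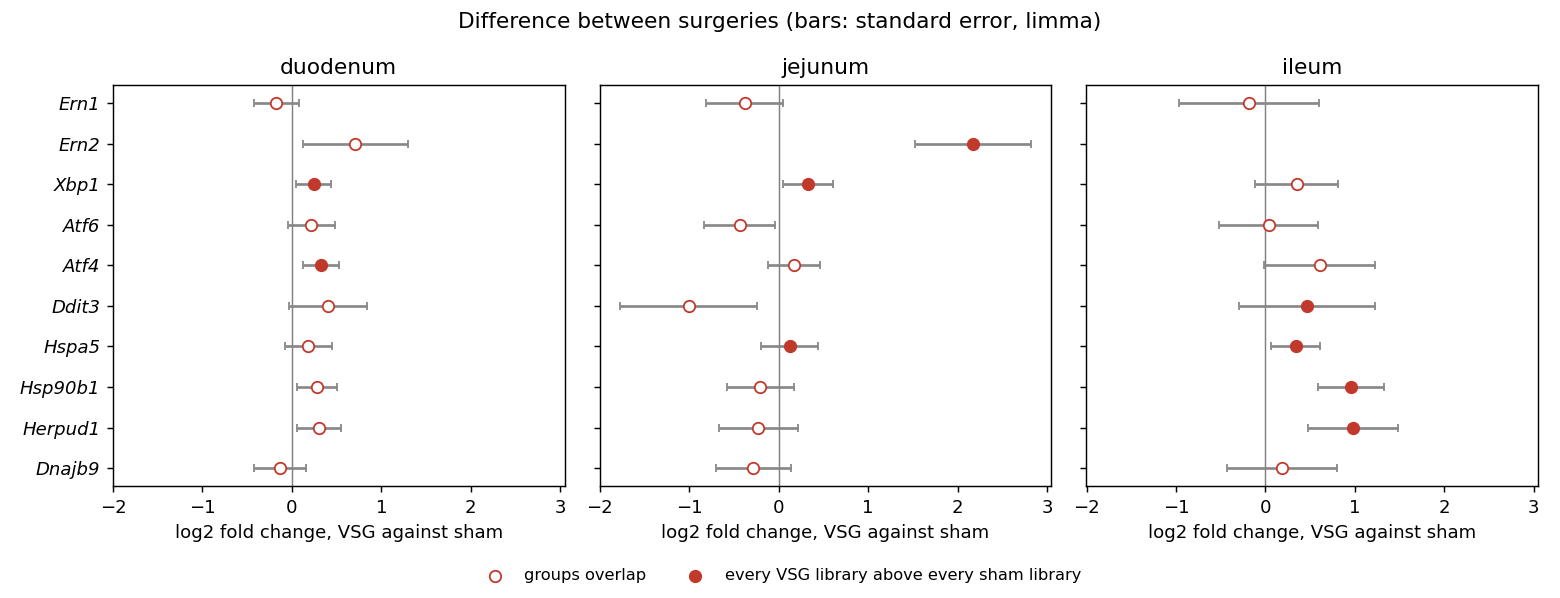
Log2 fold change of each gene, VSG against sham (horizontal axis), with its limma standard error, in the duodenum, jejunum and ileum on 1 shared axis. Filled points are genes with every VSG library above every sham library, and ileal Ern2 is left out because a sham library is listed at 0.

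The effect of VSG was compared between the duodenum and jejunum by each mouse's jejunal minus duodenal log2 value. None of the 10 members passed the threshold for a call (0.0% of 14718 genes did), and none had an unadjusted limma p under 0.05 (4.1% of genes did). The nearest was Ddit3, whose jejunal minus duodenal value was -1.39, -0.20, -0.45 and 0.03 in VSG replicates 1 to 4, against 1.53 and 0.28 in sham mice. Each VSG mouse was below both sham mice (difference -1.41 ± 0.66, limma p = 0.0620, adjusted p = 0.948, exact permutation p = 0.0667). For Ern2 the values were 0.56, 2.00, 1.004 and -1.002 in the VSG mice and -2.11 and 0.46 in the sham mice, a difference of 1.46 ± 1.05 (limma adjusted p = 0.948). The larger jejunal difference of Ern2 was thus not shown to differ from the duodenal one.

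A further 57 genes of the ER and its stress response were examined in 4 lists, of which 55, 57 and 55 were tested in the duodenum, jejunum and ileum. None was called in any segment. At an unadjusted p under 0.05, 3 were higher and 2 lower after VSG in duodenum, 1 and 2 in jejunum, and 2 and 0 in ileum; over all genes tested the shares were 2.79% and 3.48%, 3.63% and 2.4%, and 2.09% and 1.19%. The medians over the lists together were 0.10, 0.25 and 0.17, beside 0.01, 0.11 and 0.24 over all genes. The counts of direction that follow stand beside 50.7%, 55.0% and 57.0% of all genes higher after VSG in duodenum, jejunum and ileum.

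Of the 15 ER chaperone and folding genes, 11 were higher and 4 lower in duodenum, 13 and 2 in jejunum, and 5 and 10 in ileum. Pdia6, a protein disulfide isomerase that also restrains IRE1, had 11682, 9834, 12592 and 10387 normalized counts in duodenal VSG libraries, against 5859.8 and 7053 in sham libraries (log2 fold change 0.78 ± 0.21, limma adjusted p = 0.485). Of the genes of degradation and translocation, 8 were higher and 6 lower in duodenum, 9 and 6 in jejunum, and 7 and 7 in ileum. Edem1, a lectin-like protein that hands misfolded glycoproteins to degradation, had 4294, 6358, 5865 and 5584 duodenal counts after VSG and 3177 and 3018 after sham surgery (log2 fold change 0.82 ± 0.24, limma adjusted p = 0.522). Sec24d, a coat protein of the vesicles that leave the ER, went the other way, with 2128, 3617, 2325 and 4274 after VSG and 6799.8 and 6978 after sham surgery (log2 fold change -1.22 ± 0.32, limma adjusted p = 0.485).

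In the PERK and integrated stress response list, Eif2ak3, which encodes PERK itself, had 1464, 927, 2492 and 1077 duodenal counts after VSG and 705 and 537 after sham surgery (log2 fold change 1.16 ± 0.46, limma adjusted p = 0.704). Atf3, a stress-induced transcription factor, had 8274 and 5841 ileal counts after VSG and 2537 and 2017 after sham surgery (log2 fold change 1.62 ± 0.44, limma adjusted p = 0.736). In this list 7 genes were higher and 7 lower in duodenum, 8 and 7 in jejunum, and 11 and 3 in ileum.

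The list of IRE1 and ATF6 regulators and relatives, with 5 genes higher and 7 lower in duodenum, 9 and 3 in jejunum and 8 and 4 in ileum, held the 2 ER-bound transcription factors of the OASIS family that met the rule for naming. Creb3l1 had 2927, 2601, 3320 and 1504 normalized counts in jejunal VSG libraries, against 88.2 and 1318 in sham libraries, with every VSG library above (log2 fold change 2.86 ± 0.88, limma adjusted p = 0.760). Creb3l2 was below in every VSG library of the duodenum (929, 1521, 851 and 765, against 3861 and 2425) and of the jejunum (511, 3028, 792 and 1488, against 4649 and 3386). It was above in the ileum, at 1024 and 1558 against 105 and 323. Its log2 fold changes were -1.64 ± 0.38, -1.77 ± 0.64 and 2.77 ± 1.03 (limma, adjusted p = 0.434, 0.760 and 0.736).

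Ern2 and Xbp1 were then set against 25 genes of the secretory lineage over the 6 libraries of the jejunum and of the duodenum, as log2(normalized count + 1). With 2 genes and 25 partners, 50 relations were tested in each segment. In the jejunum r of Ern2 was 0.881 or above with 6 of the 8 goblet cell genes, 0.680 with Zg16 and -0.243 with Klf4, none with an adjusted p under 0.05. Spdef, a transcription factor of goblet and Paneth cell maturation, had 1827, 1791, 2893 and 1006 normalized counts in VSG replicates 1 to 4, against 373 and 1026 in sham libraries, an order close to that of Ern2. Agr2, a disulfide isomerase needed to make mucin, had 22511, 23011, 23568 and 8815 after VSG and 2562 and 11608 after sham surgery. Muc2, the main intestinal mucin, had 23707, 16029, 25239.9 and 10719 after VSG and 4604 and 11497 after sham surgery. For all 3, VSG replicate 3 was highest, sham replicate 1 lowest, and VSG replicate 4 lay near sham replicate 2.

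Over the 6 jejunal libraries, Pearson's r of Ern2 was 0.975 with Spdef, 0.969 with Agr2, 0.957 with the goblet cell peptide gene Spink4, 0.952 with Tff3 and 0.950 with Muc2. For Spdef the exact permutation p was 0.00556 (adjusted p = 0.0694 over the 50 relations) and Spearman's rho was 0.886 (exact permutation p = 0.0333, adjusted p = 0.208). No relation of either gene reached an adjusted p under 0.05 in the jejunum, where 12 had an unadjusted exact permutation p under 0.05, or in the duodenum, where 3 had and the smallest adjusted p was 0.486. The median r of jejunal Ern2 over the 25 partners was 0.809, and 17 of them (68%) had r above 0.5, as did 25.8% of all 15857 genes tested.

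The relations of jejunal Ern2 with Spdef, Agr2 and Muc2 were also seen within the surgery groups and without the sham libraries. When the mean of each surgery group was taken off, r was 0.956 with Spdef, 0.973 with Agr2 and 0.901 with Muc2. The 2 sham values are then equal and opposite by construction, so these r still rest in part on sham replicate 1. Over the 4 VSG libraries that remain when the 2 libraries farthest from the Ern2 median, both sham libraries, are left out, r was 0.966, 0.932 and 0.827. Without sham replicate 1 it was 0.929, 0.860 and 0.836. Over all 25 partners the median r fell to 0.454 without that library and was 0.707 with group means taken off. The partners with r above 0.5 then numbered 11 and 20. The share of all genes with such r was not computed for these settings.

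Atoh1, the transcription factor that starts the secretory lineage, had 1512, 1556, 1677 and 529 jejunal counts after VSG and 450.1 and 594 after sham surgery, and r with Ern2 was 0.849 (exact permutation p = 0.00972, adjusted p = 0.0694). Of the 6 Paneth cell genes, Mmp7, a protease that processes defensins, had r = 0.957 with Ern2 (exact permutation p = 0.0125, adjusted p = 0.0694) and 0.807 without sham replicate 1. The other 5, Ang4 (0.866), Itln1 (0.677), Defa24 (0.619), Lyz1 (0.457) and Defa30 (0.363), had an exact permutation p above 0.05, and without sham replicate 1 their r lay between -0.562 and 0.281. Lyz1, the lysozyme gene, had 16348, 24988, 80325 and 66416 jejunal counts after VSG and 11846 and 63943 after sham surgery. Chga, a granule protein of enteroendocrine cells, had r = 0.743, which turned to -0.282 without sham replicate 1. The endocrine transcription factor gene Insm1 had r = 0.949 in the jejunum and 0.954 in the duodenum (exact permutation p = 0.00694 and 0.00972, adjusted p = 0.0694 and 0.486). Jejunal r was lower with the other enteroendocrine genes, Chgb (0.305), Neurod1 (0.267), Nkx2-2 (0.193) and Cck (0.068). In the duodenum r was 0.196 with Chga, 0.159 with Chgb, 0.265 with Neurod1, 0.071 with Nkx2-2 and 0.120 with Cck. With the remaining secretory progenitor genes jejunal r was 0.850 (Gfi1), 0.809 (Dll4) and -0.167 (Dll1). Whether one partner's r differs from another's was not tested.

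**Figure D4:**
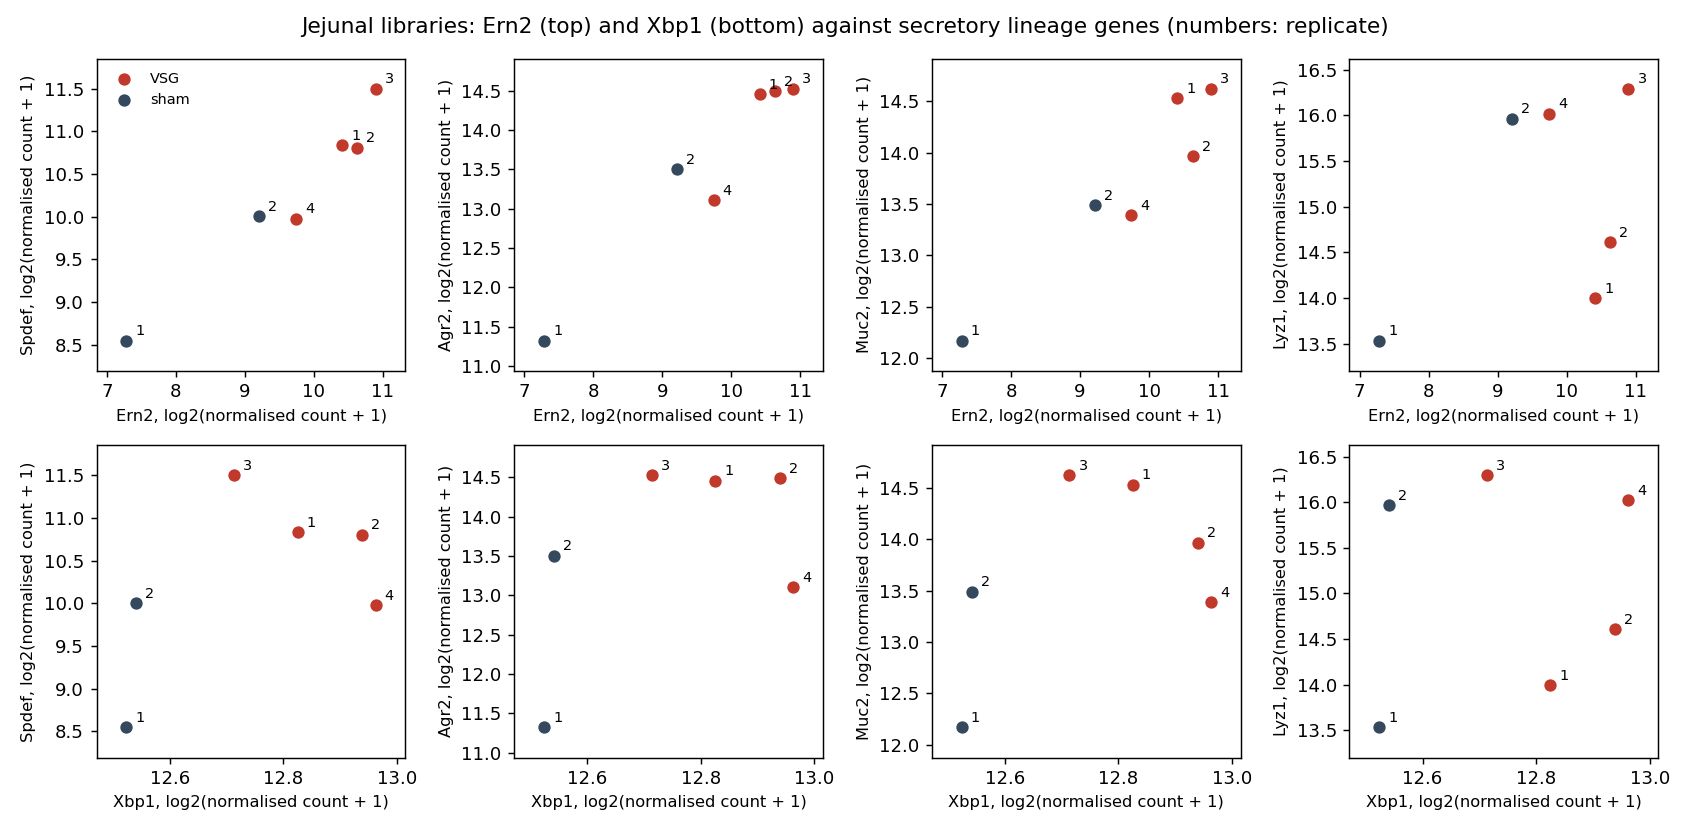
Each jejunal library as 1 point, with Ern2 (top) or Xbp1 (bottom) on the horizontal axis and Spdef, Agr2, Muc2 or Lyz1 on the vertical axis, all as log2(normalized count + 1), VSG in red and sham in dark blue with replicate numbers. Spdef, Agr2 and Muc2 go up with Ern2. Among the 4 VSG libraries Spdef and Muc2 go down as Xbp1 goes up, while Agr2 is low in replicate 4 and near level in the others.

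For Xbp1 the jejunal median r over the 25 partners was 0.388, with 0.493 for Spdef, 0.527 for Agr2 and 0.466 for Muc2, none of these 3 with an exact permutation p under 0.05. The highest were those with Mmp7 (0.843, exact permutation p = 0.0111, adjusted p = 0.0694) and the Notch ligand gene Dll4 (0.812, exact permutation p = 0.0181, adjusted p = 0.0752). The difference in r between Ern2 and Xbp1 was not tested. When group means were taken off, the median was -0.254, and over the 4 VSG libraries r was -0.874 with Spdef, -0.611 with Agr2 and -0.890 with Muc2. The VSG library with the most Ern2, replicate 3, had the least Xbp1 of the 4, and the library with the least Ern2, replicate 4, had the most Xbp1. Between Ern2 and Xbp1 themselves r was 0.662 over the 6 jejunal libraries, which share their scaling. Scaled to equal totals the median r of jejunal Xbp1 was 0.707.

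In the duodenum the median r over the 25 partners was 0.427 for Ern2 and 0.387 for Xbp1, with 9 and 7 partners above 0.5 (36% and 28%, beside 13.8% of all genes for each). Ern2 had r = 0.825 with Spink4, 0.787 with Tff3 and 0.699 with Agr2 but 0.476 with Muc2 and 0.427 with Spdef. The counts of Muc2, 6079, 13877, 13436 and 20991 after VSG and 17869 and 3081 after sham surgery, put sham replicate 1 above 3 of the 4 VSG libraries, where Ern2 put it above 1. Xbp1 had r = 0.764 with Agr2 and 0.734 with Spdef, and with group means taken off these were 0.208 and -0.399. Without the 2 libraries farthest from the median, the median r over the partners was 0.581 for Ern2 (without VSG replicates 2 and 4) and 0.798 for Xbp1 (without VSG replicate 3 and sham replicate 1).

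**Figure D5:**
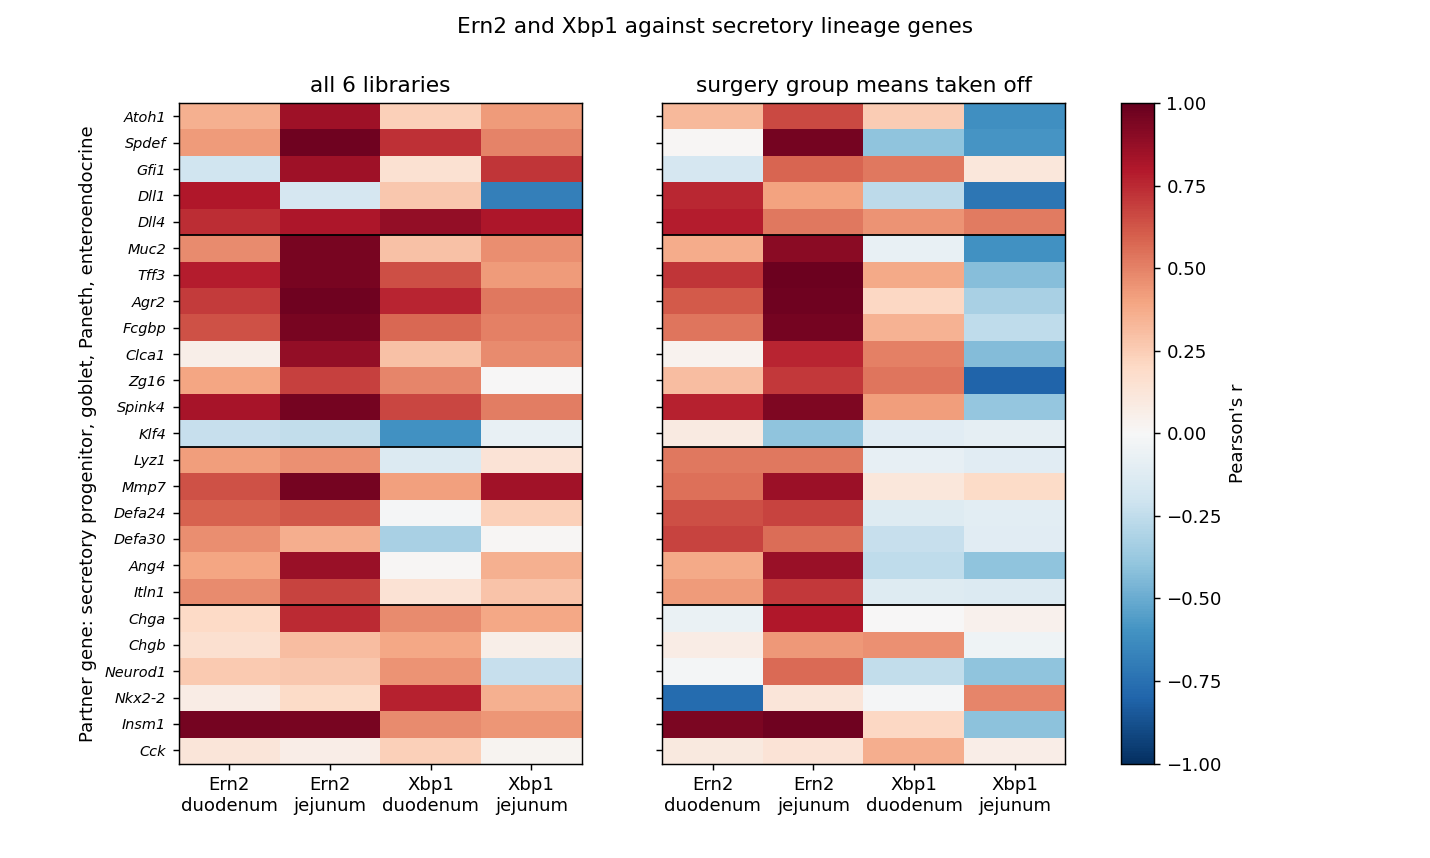
Pearson's r of Ern2 and Xbp1 with each of 25 secretory lineage genes (rows, with lines between the lists), over 6 libraries (left) and with the mean of each surgery group taken off (right). The jejunal Ern2 column is dark red for most goblet cell genes on both sides, and the jejunal Xbp1 column turns from mostly red to mostly blue.

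In the ileum there were 4 libraries, too few for a correlation. Ileal Ern2 was 730 and 179 after VSG and 0 and 412 after sham surgery, in the same library order as Agr2 at 10698, 881, 1321 and 5583 and Spdef at 734, 339.6, 261 and 367 except that the low pair changed places for Agr2. Ileal Muc2 was highest where Ern2 was 179, at 54069.5, and was 12689.8, 1912 and 15046 in the other libraries.

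Across all 16 libraries, centred within each segment, the genes most like Ern2 among 7131 with a mean above 50 and no 0 were Supt6, Dtx4, Tmem171, Ric8b and Hmgb1 (r = 0.935 to 0.923). Ern2 itself is listed at 0 in ileal sham replicate 1. Over the other 15 libraries, a choice made after seeing the data, none of these stayed among the 5, which were then Spink4 (r = 0.927), Rpn1 (0.927), Rph3al (0.918), Creb3l1 (0.910) and Selm (0.909). Spink4 is a goblet cell gene and Rpn1 encodes a subunit of the ER enzyme that glycosylates new proteins. The genes most like Xbp1 were Sfr1 (r = 0.888), Gm10250 (0.871), Cebpd (0.840), Mrpl1 (0.836) and Srek1ip1 (0.830). Neither of the Ern2 sets shared a gene with that of Xbp1.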

How the data were processed

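RNA-Seq of GFP+ ISCs gave 16 libraries, each 1 segment of 1 mouse. Reads were mapped by the authors with STAR 2.5.3a (mm10) and quantified with Salmon 0.6.0. The authors deposited, for each segment, signal values that are counts they normalized with DESeq2. Libraries with low mapping had been excluded, at a lower cut in the ileum than in the other segments, and are not analysed here. Pairs of libraries had r of 0.786 to 0.871 in the duodenum, 0.710 to 0.860 in the jejunum and 0.585 to 0.643 in the ileum. The authors also deposited tables of their own fold changes and p-values, which were not used. Of the low values, 74.2% to 92.8% per library were whole reads (within 0.01 of a read), so no count model was run. Depth was implied from the smallest steps and was 10.9 to 63.6 M reads.

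The members, gene lists and tests were chosen with earlier results of these data known. Each segment was tested with limma 3.58.1 (R 4.3.3), with a variance trend, after taking log2(normalized count + 1), keeping genes whose mean exceeded 10 (16867, 15857 and 13853 genes), which understates changes of low genes. The segment contrast used each mouse's difference. The steps were tested on simulated data. Permutation tests were exact and two-sided, over 15 splits of libraries (6 in the ileum). Positions and lengths came from GENCODE M21, and promoters from RefSeq. Genes of 4 pathway lists were named where p was under 0.05 and the groups did not overlap, at most 3 a list and segment. Of the secretory genes, Muc2, Atoh1, Spdef, Agr2, Lyz1 and Chga were to be named; the others named were chosen after their values were seen. For Ern2 and Xbp1, the 5 genes with the highest r over 16 libraries were named. A number shared by a VSG and a sham mouse does not pair them. As alternatives, each library was left out in turn, libraries were scaled to equal totals or quantile normalized, and the pseudocount (0.5 or 10), filter, trend, adjusted p (0.05) and a replicate block were varied; counts of separated members under other scalings, the ratio of Ern2 to Ern1 and r without sham replicate 1 were added after seeing the data. Figures used Python 3.11.15 and matplotlib 3.10.9.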

Additional observations from a re-analysis of the deposited data

Results flagged for a closer look

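In each of the 20 groups of 4 VSG libraries looked at for 1 member and segment, no library lay far enough from the other 3 to be singled out, where chance alone singles out about 1 in 20 groups.

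Among the 57 other ER genes, 5 had every VSG library on one side of the sham libraries in 1 segment and on the opposite side in another. These differences between segments were not tested, and the share of all genes with such opposite sides was not counted. The ER chaperone gene Calr had log2 fold changes of 0.20 (duodenum), 0.33 (jejunum) and -0.48 (ileum). The translocon genes Sec61a1 (0.51 in the jejunum, -0.43 in the ileum) and Sec61b (0.40 and -0.33) went the same 2 ways. Trib3, a target of CHOP, had -3.00 in the duodenum and 4.18 in the ileum, but was listed at 0 in duodenal VSG replicate 1 and ileal sham replicate 2, so these sizes depend on the pseudocount. Creb3l2 had -1.64 and -1.77 in the duodenum and jejunum and 2.77 in the ileum. In the ileum with 2 libraries against 2, 17.0% of all genes tested had every VSG library above and 11.6% had every VSG library below. One of the ileal VSG libraries, replicate 5, came from a mouse with no library in the other segments.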

How the results depend on the processing

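Of 520 recomputed log2 fold changes of the members, 496 kept their direction and their side of the threshold, 22 changed direction and 2 passed the threshold, jejunal Ern2 and Dnajb9 without sham replicate 2, which leaves 1 sham library, assumed to vary like the rest. Under scaling to equal totals, jejunal Hsp90b1 was 0.024 and the segment contrast of Hspa5 0.085; under quantile normalization they were 0.017 and 0.11. With a replicate block, which joins different mice, duodenal Hspa5 was -0.0096 and 0 genes were called in the duodenum and jejunum. No such block was fitted in the ileum, where VSG and sham libraries share no numbers. VSG and sham mice are not paired in any segment. Leaving out 1 library, the members that changed direction ranged from -0.12 to 0.49 (duodenal Hspa5), -0.023 to 0.46 (duodenal Atf6), -0.41 to 0.0015 (jejunal Hsp90b1), -0.66 to 0.21 (jejunal Herpud1), -0.86 to 0.29 (jejunal Dnajb9), -0.049 to 0.74 (ileal Xbp1), -0.65 to 0.28 (ileal Ern1), -0.19 to 8.50 (ileal Ern2), -0.22 to 1.42 (ileal Atf4), -0.21 to 0.28 (ileal Atf6) and -0.21 to 0.58 (ileal Dnajb9), and in the segment contrast from -0.59 to 0.18 (Ern1), -0.33 to 0.21 (Hspa5) and -0.85 to 0.55 (Dnajb9). The median of the members ranged from 0.18 to 0.45 in the duodenum, -0.53 to 0.18 in the jejunum and 0.28 to 0.55 in the ileum. Scaling to equal totals moved the median of all genes from 0.11 to 0.33 in the jejunum and from 0.24 to 0.35 in the ileum; the members' median was then 0.01 and 0.51, which lay -0.32 and 0.16 from that of all genes, as with the deposited values (-0.33 and 0.16).

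Counts over all genes depended on the settings. The duodenal count of 4 became 0 with an adjusted p under 0.05, equal totals, a mean above 50, no filter or a pseudocount of 0.5, 10 with a pseudocount of 10 and 43 without trend, and 0 to 259 without 1 library (259 without sham replicate 1). The jejunal count of 2 became 1 with an adjusted p under 0.05 and 61 without trend, and 1 to 2710 without 1 library (2710 without sham replicate 2, the setting in which the 2 members were called). The ileal count of 0 became 3 with a pseudocount of 10 and 463 without trend, and 0 to 631 without 1 library (631 without VSG replicate 5, and nearly as many without VSG replicate 4). The count of 0 for the segment contrast became 4 without trend and 0 to 814 without 1 library (814 without sham replicate 2). The cause of these changes was not tested. No member was among the genes called except for the 2 above. Members with every VSG library above both sham libraries numbered 4, 4 and 4 with equal totals and 3, 4 and 4 with quantile normalization, in the duodenum, jejunum and ileum, and 2 to 5, 3 to 5 and 5 to 7 without 1 library.

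Without 1 library the median r with secretory genes ranged from 0.222 to 0.708 (duodenal Ern2), 0.241 to 0.643 (duodenal Xbp1), 0.454 to 0.857 (jejunal Ern2) and -0.119 to 0.505 (jejunal Xbp1). With group means taken off it was 0.116 for duodenal and -0.254 for jejunal Xbp1, and jejunal Xbp1 had 0.707 with equal totals. With 2 sham libraries in each segment, no exact permutation test of VSG against sham could reach a p under 0.05.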
